A study of Mus musculus with 6 samples.

Results

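Integrins are transmembrane receptors that fasten a cell to the matrix around it, and focal adhesions are the protein plaques that tie them to actin. The 44 genes described here are 19 integrin chains (12 alpha and 7 beta) and 25 adaptors and actin linkers of the focal adhesion plaque, out of 55401 genes counted. The list is one of gene names, and each symbol matched 1 Ensembl identifier. Of the 44 genes, 43 passed the filter on low counts and were tested among 18539 genes. Fermt1 was the exception, with 0 counts in all 6 libraries.

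The data are poly(A) RNA-Seq counts from NIH3T3 cells, an immortalized line of mouse embryonic fibroblasts. EV cells (2 libraries) carry an empty vector and received the vehicle DMSO, and TC cells (1 library) carry the TAZ-CAMTA1 fusion and received DMSO. TC + ATA cells (3 libraries) carry the same fusion and received aurintricarboxylic acid (ATA) at 10 μM. All groups were seeded for 16 h and then kept in vehicle or ATA for 48 h. Neither the labels nor the methods give the promoter of the fusion or say whether the TC line is 1 clone, and no ATA-treated EV cells were analysed here. Nothing in the labels says that replicates came from separate cultures, so p-values measure the spread between these libraries, which may be technical.

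An integrin is a pair of 1 alpha and 1 beta chain, and the pair decides the ligand. Chains that pair with Itgb1 fall into receptors for laminin (Itga3, Itga6, Itga7), for collagen (Itga1, Itga2, Itga10, Itga11), and for matrix proteins with an arginine-glycine-aspartate motif such as fibronectin (Itga5, Itga8, Itgav). Inside the cell, talins and kindlins bind the beta tail and activate the receptor, and vinculin, alpha-actinins and filamin A link it to actin. Kinases and docking proteins such as Ptk2 (FAK), Src, Pxn and Bcar1 (p130Cas) send signals from the plaque. The adhesion plaque also feeds into YAP and TAZ, since both respond to matrix stiffness and cell spreading, and TC acts through TEAD factors as TAZ does.

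Library totals ran from 58471484 to 74413193 counts, so that 3 counts correspond to between 0.0403 and 0.0513 CPM (counts scaled to 1000000 per library). The TC + ATA libraries lay closest to each other, with a chi-square statistic per degree of freedom between 5.86 and 6.61 over genes, against 61.3 for the EV pair, and no pair agreed within sampling noise. The 7 fibroblast markers were all detected, with Thy1 and Pdgfra lower in TC than in EV, and summed to 12318 to 13848 CPM in EV, 17068 CPM in TC and 16063 to 17121 CPM in TC + ATA. Endothelial and epithelial markers summed to at most 3.75 and 4.73 CPM in any library, with Epcam at 0 in 4 of the 6 libraries, and muscle markers, mostly Des, to 34.2 to 56.0 CPM. Of the 5 endothelial markers, edgeR called 1 higher in TC than in EV, against 14.8% of all genes, and DESeq2 called Cdh5. Their median log2 fold change was 0.64. Leukocyte markers summed to 11.4 CPM in both EV libraries, 18.2 CPM in TC and 13.5 to 19.5 CPM in TC + ATA. The higher sum in TC came from Itgb2, itself an integrin chain, and the median log2 fold change of the leukocyte markers tested was −0.33 in TC versus EV. Fewer cells of a type and less RNA per cell cannot be told apart in such bulk samples.

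The first comparison asked what the fusion does to the adhesion genes in vehicle. TC cells had more transcript than EV cells of 25 of the 43 genes tested. The 3 laminin-binding alpha chains rose between 4.02-fold and 8.44-fold, and their shared partner Itgb1 rose 1.86-fold. Itga11, Itga8, Itgb5 and Itgb3 fell. Among the 24 adaptors and actin linkers tested 16 rose and none passed as lower, and all that rose did so by less than 2-fold except Parvb (2.93-fold) and Ilk (2.44-fold). Tns1 and Tgfb1i1 were the adaptors that were lower at an unadjusted p under 0.05 in edgeR, and DESeq2 called 0 adaptors lower.

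At an adjusted p of at most 0.05 in edgeR's quasi-likelihood test, 25 of the 43 tested members were higher in TC than in EV and 4 were lower. Over all genes 14.8% were called higher and 13.2% lower, and 28% in either direction, against 67.4% of the members. Genes with a mean of at least 10 CPM were called more often, with 21.7% higher, 18% lower and 39.6% in either direction, and among the 31 members at that level 22 were higher and 1 lower. With the study's additional limit of 2 on the absolute log2 fold change, 4 members were higher and 1 lower, against 2.36% and 1.27% of all genes. The median log2 fold change was 0.90 for the integrin chains and 0.53 for the adaptors and actin linkers, against −0.0261 for all genes. Scaling by library totals alone gave 22 members higher and 6 lower, and over all genes it moved the split from 2735 higher and 2456 lower to 2072 and 3159. Since TC has 1 library, it is assumed to vary as the EV and TC + ATA libraries do, and this comparison has no replicate check on the TC side.

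**Figure D1:**
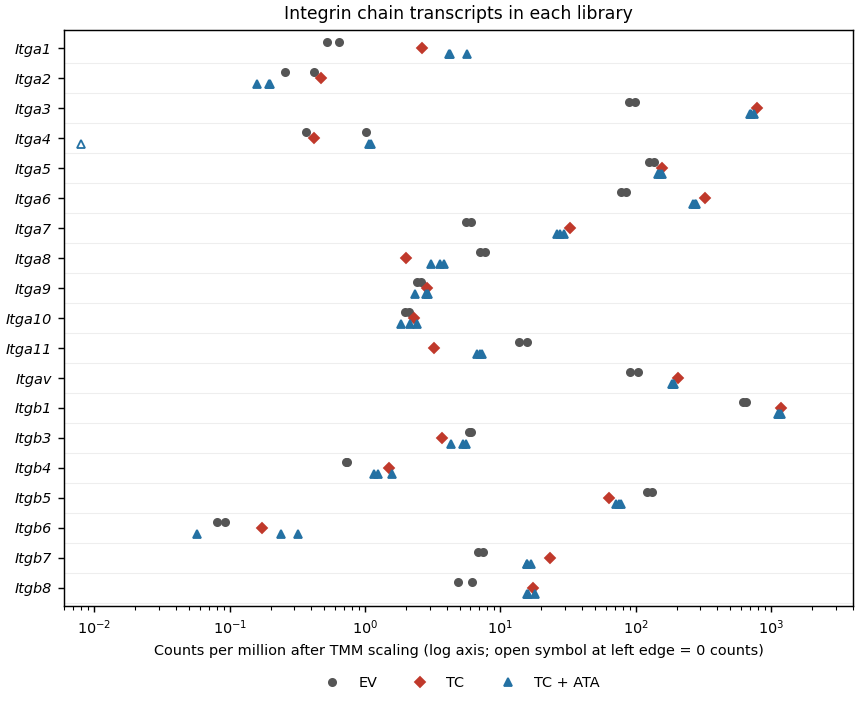
Each symbol is 1 library, with the transcript level of a named integrin chain in CPM on a log axis (EV circles, TC diamond, TC + ATA triangles). Itga3, Itga6, Itga7 and Itgb1 lie to the right of EV in all 4 TC-expressing libraries, Itga8, Itga11 and Itgb5 lie to the left, and Itga4 has 1 TC + ATA library at 0 counts.

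Itga3 pairs with Itgb1 to form a receptor for laminins and lies on chromosome 11 from 95044474 to 95076801 (GRCm38, minus strand). It had 98.7 and 88.6 CPM in the EV libraries, 790.2 CPM in TC and 748, 711 and 698 CPM in TC + ATA. Both EV libraries were therefore far below all 4 TC-expressing libraries. Against EV the log2 fold change was 3.08 (standard error 0.10, edgeR adjusted p = 2.66e-07), the largest of all members tested, and it stayed between 3.00 and 3.14 with each EV or TC + ATA replicate left out in turn.

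Itga6, a laminin receptor chain that pairs with Itgb1 or Itgb4, lies on chromosome 2 from 71745616 to 71858416. It had 78.0 and 84.4 CPM in EV, 326 CPM in TC and 274, 281 and 264 CPM in TC + ATA. Its log2 fold change against EV was 2.01 (standard error 0.08, edgeR adjusted p = 9.19e-07). Itga7, the laminin receptor chain best known from muscle, lies on chromosome 10 from 128933818 to 128958282. Its levels were 6.06 and 5.59 CPM in EV, 32.5 CPM in TC and 27.6, 29.4 and 26.0 CPM in TC + ATA. It rose by a log2 fold change of 2.48 (standard error 0.11, edgeR adjusted p = 1.09e-06). For both genes the EV and the TC-expressing libraries did not overlap.

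The collagen-binding alpha chains did not move together. Itga1 was at 0.642 and 0.525 CPM in EV, 2.65 CPM in TC and 4.14, 5.68 and 4.24 CPM in TC + ATA, and rose in TC by a log2 fold change of 2.18 (standard error 0.28, edgeR adjusted p = 4.50e-04). Itga11, a collagen receptor chain of fibroblasts on chromosome 9 from 62677826 to 62783982, went the other way. It had 15.6 and 13.6 CPM in EV, 3.24 CPM in TC and 7.25, 7.01 and 6.74 CPM in TC + ATA, so the TC + ATA libraries lay between EV and TC. Its log2 fold change against EV was −2.17 (standard error 0.16, edgeR adjusted p = 1.46e-05).

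Itga2 and Itga10 did not pass the test. Itga2 had between 0.158 and 0.475 CPM in any library (log2 fold change 0.49, standard error 0.60, edgeR adjusted p = 0.595). It lies on chromosome 13, 20995 bp from Itga1, which rose. Itga10 had between 1.83 and 2.42 CPM (log2 fold change 0.17, standard error 0.26, edgeR adjusted p = 0.687), and it shares 33.5% of its exonic bases with a predicted gene on the same strand, so its reads may be split.

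Among the chains that bind the arginine-glycine-aspartate motif, Itgav rose and Itga8 fell. Itgav, the alpha chain of the vitronectin receptors, had 103 and 91.4 CPM in EV, 204 CPM in TC and 188, 193 and 185 CPM in TC + ATA. Its log2 fold change against EV was 1.08 (standard error 0.09, edgeR adjusted p = 3.22e-05). Itga8, whose pair with Itgb1 binds nephronectin, had 7.02 and 7.74 CPM in EV, 2.02 CPM in TC and 3.59, 3.85 and 3.08 CPM in TC + ATA. This gave a log2 fold change of −1.87 (standard error 0.21, edgeR adjusted p = 2.16e-04), and as for Itga11 the TC + ATA libraries lay between the other groups. Itga5, the main fibronectin receptor chain, had 136 and 126 CPM in EV, 156 CPM in TC and 156, 152 and 147 CPM in TC + ATA. The log2 fold change of Itga5 was 0.25 (standard error 0.08, edgeR adjusted p = 0.0558), and it passed the limit when EV replicate 1 (edgeR adjusted p = 0.000766) or EV replicate 2 (edgeR adjusted p = 0.00922) was left out.

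Itga9, which binds tenascin C and VCAM1, had 2.41 and 2.57 CPM in EV, 2.87 CPM in TC and 2.34, 2.91 and 2.82 CPM in TC + ATA (log2 fold change 0.20, standard error 0.23, edgeR adjusted p = 0.571). Itga4, the leukocyte-type chain that binds fibronectin and VCAM1, had 76 and 28 counts in EV, 29 in TC and 0, 78 and 74 in TC + ATA, and its log2 fold change of −0.72 had a standard error of 1.39 (edgeR adjusted p = 0.753). Ptprc, the pan-leukocyte marker CD45, had 237 and 219 counts in EV, 155 in TC and 16, 378 and 293 in TC + ATA, so that it too was lowest in TC + ATA replicate 1. Itgal had 15 and Cd3e had 7 counts in that library against at least 81 and 23 in every other. The defining marker Itgam was at 0 in 4 of 6 libraries. The part of leukocyte transcripts in the Itga4 values was not tested.

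The beta chains divided in the same way between rises and falls. Itgb1, the partner of most alpha chains here (chromosome 8, 128685654 to 128733200), had the highest level per length of all members in every group. Its counts came to 652 and 624 CPM in EV, 1186 CPM in TC and 1185, 1151 and 1123 CPM in TC + ATA. The log2 fold change against EV was 0.90 (standard error 0.09, edgeR adjusted p = 1.05e-04). Itgb5, a vitronectin receptor chain that pairs with Itgav (chromosome 16, 33829665 to 33949338), fell although its partner rose. It had 132 and 120.4 CPM in EV, 63.4 CPM in TC and 71.1, 75.1 and 77.8 CPM in TC + ATA, that is a log2 fold change of −0.99 in TC (standard error 0.10, edgeR adjusted p = 8.00e-05).

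Itgb7, the leukocyte beta chain that pairs with Itga4 or Itgae, had 7.45 and 6.79 CPM in EV, 23.4 CPM in TC and 15.7, 15.8 and 16.7 CPM in TC + ATA. It rose in TC by a log2 fold change of 1.71 (standard error 0.11, edgeR adjusted p = 7.48e-06), while both of its alpha partners were at or below 1.1 CPM in every library. Of the 5 leukocyte markers Itgb2 was the only one called, with 5.07 and 4.73 CPM in EV and 13.0 CPM in TC, while Ptprc went from 3.17 and 2.87 to 2.23 CPM. The part of leukocyte transcripts in the Itgb7 values was not tested. Itgb8, which pairs with Itgav and takes part in the activation of latent TGF-beta, had 4.84 and 6.12 CPM in EV, 17.5 CPM in TC and 16.0, 17.9 and 15.8 CPM in TC + ATA. Its log2 fold change was 1.68 (standard error 0.15, edgeR adjusted p = 5.15e-05).

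Itgb3, the other classical partner of Itgav, fell from 6.07 and 5.84 CPM in EV to 3.67 CPM in TC, with 4.28, 5.25 and 5.52 CPM in TC + ATA. The log2 fold change was −0.70 (standard error 0.20, edgeR adjusted p = 0.0277), and the call was lost without TC + ATA replicate 2 (edgeR adjusted p = 0.0529). Itgb4, the hemidesmosome chain that pairs with Itga6, had 0.735 and 0.721 CPM in EV, 1.5 CPM in TC and 1.16, 1.57 and 1.24 CPM in TC + ATA. The log2 fold change of 1.04 (standard error 0.33, edgeR adjusted p = 0.0466) lost its call whichever EV or TC + ATA replicate was left out, with adjusted p-values up to 0.0869 in edgeR. The 7 epithelial markers summed to 2.59 and 1.52 CPM in EV, 4.58 CPM in TC and 3.24, 3.40 and 4.73 CPM in TC + ATA, with Krt14 the only one called in TC versus EV and Epcam, Krt5 and Krt18 at or near 0. Their part in the Itgb4 values was not tested. Itgb6, an epithelial partner of Itgav, had between 4 and 18 counts per library, too few to show a difference (log2 fold change 0.99, standard error 1.03, edgeR adjusted p = 0.533).

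**Figure D2:**
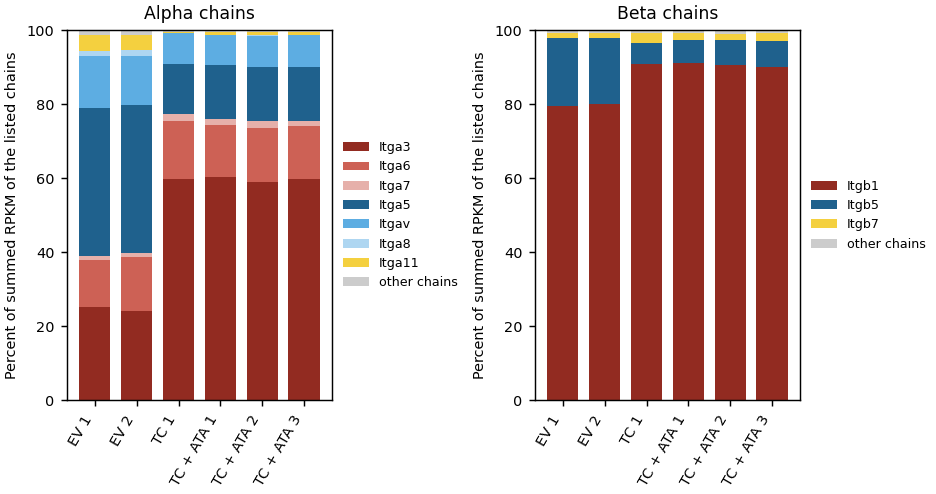
Bars show, for each library, what percent of the summed RPKM of the 12 alpha chains (left) and of the 7 beta chains (right) came from each named chain, with the remaining chains in grey. Itga3 takes up 25.2 and 24.2% of the alpha bars in EV and 59.0 to 60.4% in the 4 TC-expressing libraries, and Itga5 shrinks from about 40 to under 15%.

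To compare chains with each other, CPM were divided by the exonic length of each gene in kilobases (RPKM). In EV the most abundant alpha transcript was Itga5 (26.6 ± 1.37 RPKM, SD, n = 2), followed by Itga3 (16.4 ± 1.25), Itgav (9.03 ± 0.745) and Itga6 (9.0 ± 0.508), and the last pair did not differ beyond their spread. In TC the order was Itga3 (138 RPKM), Itga6 (36.1 RPKM), Itga5 (31.6 RPKM) and Itgav (19.0 RPKM), and in TC + ATA it was Itga3 (126 ± 4.50 RPKM, SD, n = 3), Itga5 (30.7 ± 0.912), Itga6 (30.2 ± 0.962) and Itgav (17.5 ± 0.352), with Itga5 and Itga6 within their spread. The laminin-binding chains made up 38.9 and 39.8% of the summed RPKM of all alpha chains in EV, 77.2% in TC and 75.5 to 76.0% in TC + ATA. The collagen-binding chains made up 5.08 and 4.90% in EV, 0.556% in TC and 0.930 to 1.00% in TC + ATA. Among the beta chains Itgb1 went from 79.4 and 80.1% in EV to 91.0% in TC, and Itgb5 from 18.5 and 17.8% to 5.58%. These shares describe transcripts and not the pairs at the cell surface, and the grouping by ligand is the textbook one.

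**Figure D3:**
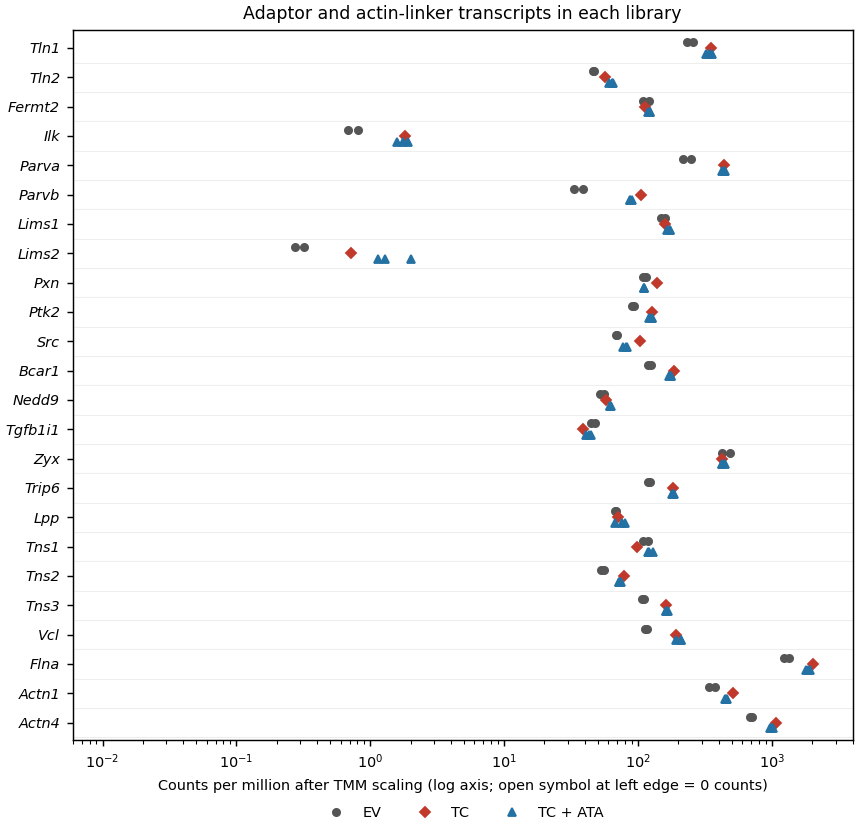
Each symbol is 1 library, with the transcript level of a named adaptor or actin linker in CPM on a log axis (EV circles, TC diamond, TC + ATA triangles). Most genes lie slightly to the right of EV in the TC-expressing libraries, Zyx and Fermt2 overlap, and Ilk and Lims2 sit below 2.1 CPM in all libraries.

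In the plaque, all 4 actin linkers rose. Flna, the actin crosslinker that binds beta tails, had 1342 and 1222 CPM in EV, 2008 CPM in TC and 1911, 1857 and 1788 CPM in TC + ATA, that is a log2 fold change of 0.65 in TC (standard error 0.10, edgeR adjusted p = 1.55e-03). Vcl, vinculin, had 117 and 113 CPM in EV, 193 CPM in TC and 209.9, 208 and 191 CPM in TC + ATA, that is a log2 fold change of 0.74 (standard error 0.09, edgeR adjusted p = 2.58e-04). It shares 25.5% of its exonic bases with Ap3m1 on the opposite strand, and the library kit did not mark strand, so reads from the shared bases cannot be told apart. The alpha-actinins Actn1 and Actn4 rose by log2 fold changes of 0.51 and 0.61 (standard error 0.09 for each, edgeR adjusted p = 3.02e-03 and 1.05e-03). With only the 3 EV and TC libraries in the fit, which leaves 1 residual degree of freedom, the calls of Flna, Actn1 and Actn4 were lost (edgeR adjusted p = 0.114, 0.0944 and 0.0812).

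Of the activators, Tln1 had 259 and 233 CPM in EV, 352 CPM in TC and 354, 337 and 319 CPM in TC + ATA, and rose by a log2 fold change of 0.51 (standard error 0.10, edgeR adjusted p = 4.44e-03), a call lost with only the EV and TC libraries in the fit (edgeR adjusted p = 0.0593). Its paralog Tln2 had 46.0 and 47.2 CPM in EV, 57.0 CPM in TC and 64.0, 64.9 and 60.4 CPM in TC + ATA. The log2 fold change of Tln2 was 0.29 (standard error 0.08, edgeR adjusted p = 0.0291), and its call was lost without TC + ATA replicate 1, 2 or 3 (edgeR adjusted p = 0.0708, 0.0752 and 0.0605). Fermt2, kindlin-2, had 109.7 and 121 CPM in EV, 112 CPM in TC and 119, 122 and 122 CPM in TC + ATA, and its log2 fold change of −0.04 did not pass (standard error 0.09, edgeR adjusted p = 0.794). Fermt1, the kindlin of epithelia, was at 0 counts throughout, which allows a level of up to 0.0513 CPM in the shallowest library.

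The parvins bind integrin-linked kinase and actin, and they had the largest changes among the adaptors with a mean of at least 10 CPM. Parvb (chromosome 15, 84232043 to 84315688) had 39.0 and 33.1 CPM in EV, 106 CPM in TC and 87.6, 86.3 and 90.7 CPM in TC + ATA. It rose by a log2 fold change of 1.55 (standard error 0.10, edgeR adjusted p = 7.72e-06). Parva had 247 and 215 CPM in EV, 439 CPM in TC and 447, 439 and 426 CPM in TC + ATA, that is a log2 fold change of 0.93 (standard error 0.10, edgeR adjusted p = 1.49e-04). Lims1 (PINCH1), which joins the same complex, had 148 and 159 CPM in EV, 160 CPM in TC and 173, 174 and 165 CPM in TC + ATA (log2 fold change 0.06, standard error 0.08, edgeR adjusted p = 0.658).

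Lims2 (PINCH2) was low, with 24 and 21 counts in EV, 50 in TC and 115, 91 and 80 in TC + ATA, and did not pass in TC (log2 fold change 1.27, standard error 0.46, edgeR adjusted p = 0.0728). Ilk, the kinase-like scaffold at the centre of the complex, had only 61 and 52 counts in EV, 127 in TC and 109, 113 and 121 in TC + ATA. Ilk changed by 1.29 on the log2 scale (standard error 0.30, edgeR adjusted p = 0.0114), a call lost with a replicate block in the model (edgeR adjusted p = 0.0889). Taf10 and Rrp8 cover 89.7% of its exonic bases on the opposite strand and had between 3751 and 7879 counts in every library. The low Ilk count cannot be read as a low level of the transcript, and the part of this overlap in its change was not tested.

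Of the signalling adaptors, Bcar1, Src, Ptk2 and Pxn rose. Bcar1, the stretch-sensitive docking protein, had 125 and 119 CPM in EV, 186 CPM in TC and 177, 170.2 and 175 CPM in TC + ATA (log2 fold change 0.61, standard error 0.08, edgeR adjusted p = 4.69e-04). Ptk2, which encodes FAK, had 90.5 and 92.5 CPM in EV, 128 CPM in TC and 127, 126 and 120 CPM in TC + ATA (log2 fold change 0.48, standard error 0.08, edgeR adjusted p = 1.76e-03). Src had 68.5 and 69.7 CPM in EV, 104 CPM in TC and 82.8, 81.8 and 77.4 CPM in TC + ATA (log2 fold change 0.58, standard error 0.08, edgeR adjusted p = 6.47e-04).

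Pxn, paxillin, had 114 and 108 CPM in EV, 139 CPM in TC and 111 CPM in each TC + ATA library. Only its TC library stood above EV, with a log2 fold change of 0.32 (standard error 0.08, edgeR adjusted p = 0.0130) that lost its call without TC + ATA replicate 2 (edgeR adjusted p = 0.0509). The call was also lost with a replicate block in the model (edgeR adjusted p = 0.153) and with only the EV and TC libraries in the fit. The paxillin relative Tgfb1i1 (Hic-5) had 47.9 and 44.8 CPM in EV and 38.5 CPM in TC, a log2 fold change of −0.27 (standard error 0.09, edgeR adjusted p = 0.0582). It passed the limit without EV replicate 1 or 2 (edgeR adjusted p = 0.0277 and 0.00525) and with scaling by library totals (edgeR adjusted p = 0.0156). Nedd9, the relative of Bcar1, had 52.1 and 55.3 CPM in EV and 57.7 CPM in TC (log2 fold change 0.10, standard error 0.08, edgeR adjusted p = 0.389).

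In the zyxin family, which shuttles between adhesions and the nucleus, Trip6 rose from 123 and 119 CPM in EV to 183 CPM in TC, with 187, 178 and 183 CPM in TC + ATA. Trip6 thus changed by 0.59 on the log2 scale (standard error 0.08, edgeR adjusted p = 5.22e-04). Zyx had 483 and 420.3 CPM in EV, 426 CPM in TC and 421, 444 and 424 CPM in TC + ATA, that is a log2 fold change of −0.08 (standard error 0.10, edgeR adjusted p = 0.604). The TC level of Zyx lay between the EV libraries, and it was called lower when EV replicate 2 was left out (edgeR adjusted p = 0.00878). Lpp showed a log2 fold change of 0.07 (standard error 0.10, edgeR adjusted p = 0.692).

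The tensins tie integrins in fibrillar adhesions to actin. Tns2 had 55.4 and 52.7 CPM in EV, 79.1 CPM in TC and 72.2, 72.1 and 74.5 CPM in TC + ATA, and Tns3 had 110.3 and 107 CPM in EV, 163 CPM in TC and 167, 162 and 163 CPM in TC + ATA. Their log2 fold changes in TC versus EV were 0.55 and 0.58 (standard error 0.08 for each, edgeR adjusted p = 8.63e-04 and 4.74e-04). Tns1 had 118 and 108 CPM in EV, 97.4 CPM in TC and 129, 120 and 119 CPM in TC + ATA. For Tns1 the log2 fold change was −0.22 (standard error 0.09, edgeR adjusted p = 0.122), and it was called lower without EV replicate 2 (edgeR adjusted p = 0.00344) and with scaling by library totals (edgeR adjusted p = 0.0174). Differences in fold change between paralogs were not tested.

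**Figure D4:**
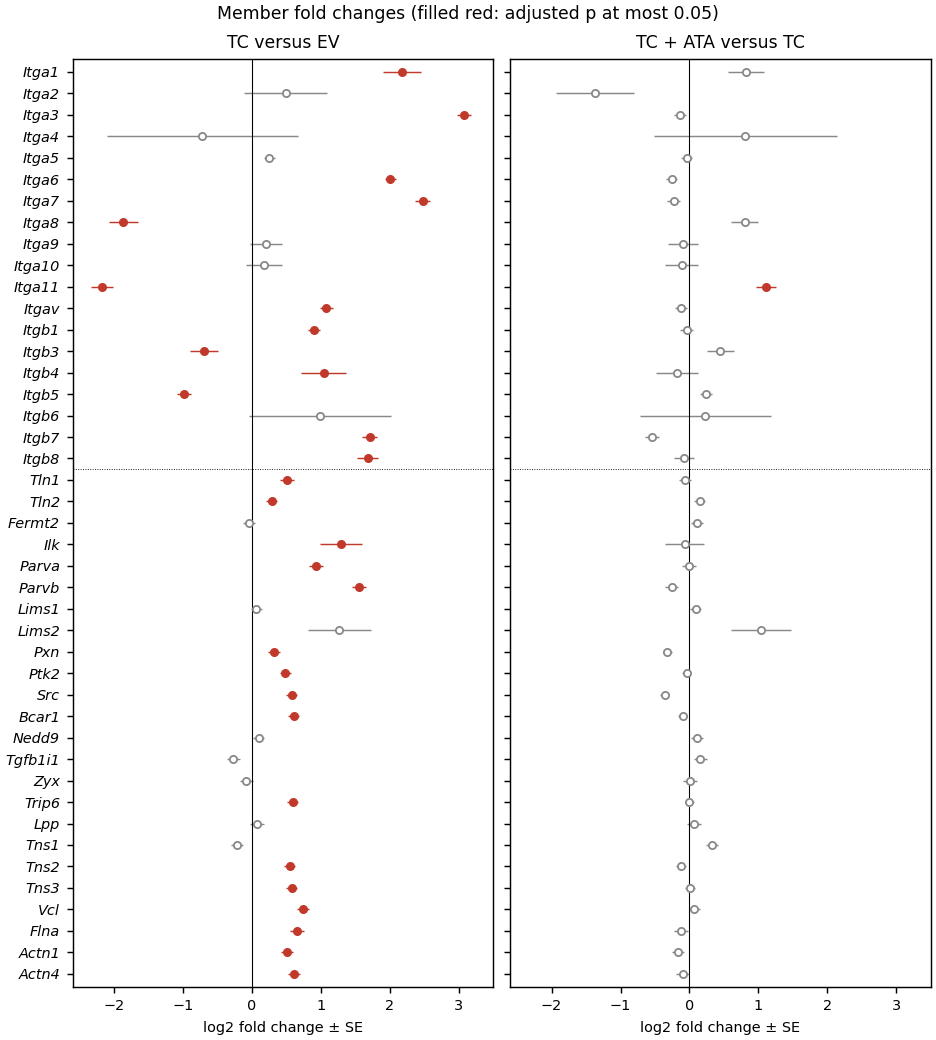
Points give the log2 fold change of each tested member with its standard error, in TC versus EV (left) and in TC + ATA versus TC (right), and filled red points passed an edgeR adjusted p of 0.05. Integrin chains lie above the dotted line and spread from −2.17 to 3.08 on the left, the adaptors and actin linkers below it spread from −0.27 to 1.55, and only Itga11 is filled on the right.

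The promoter of each member was searched for the letters GGAATG, the core of the site that TEAD factors bind, on both strands (that is, also CATTCC). RefSeq promoter windows of GRCm38.p6, 300 bases long from 250 before to 50 after the transcript start, were at hand for 34 members, with 41 windows in all, and for none of Itga6, Itga7, Itgb3, Itgb4, Pxn, Ptk2, Tln2, Parva, Lims2 and Tgfb1i1. The letters stood in 7 of the 41 windows (17.1%), against 14.7% of all 32851 windows of this length. The windows of Itga3, the member with the largest rise, and of Parvb held none. A match is a description and not a binding site, and no match says only that these letters are not in these windows. The matches are shown with 12 bases on each side because they are the places where a member and the TEAD letters meet next to a start, and the capitals mark the motif.
Actn4, chr7:28962531-28962560, minus strand: tgaatgggaacaCATTCCaccccgaaacag
Flna, chrX:74246663-74246692, minus strand: ggcgttgtggggCATTCCaacgggaggggc
Itga10, chr3:96645497-96645526, plus strand: caccaccactccCATTCCatccaactttat
Itgb1, chr8:128685635-128685664, plus strand: acgcggcgcggaGGAATGcgtttccggagg
Lpp, chr16:24721661-24721690, plus strand: ctggaagtatgtGGAATGgagaaggaagtg
Trip6, chr5:137314256-137314285, minus strand: tgaccctcccctGGAATGtggtgacgtcag
Vcl, chr14:20929243-20929272, plus strand: gcccctcccttgGGAATGggggcggggcgg

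The second comparison asked what ATA does to the adhesion genes in cells that carry the fusion. In the edgeR fit of all 6 libraries, few adhesion genes differed detectably between TC cells with and without ATA. Itga11 was the only member that passed the test, with 3.24 CPM in TC and 7.25, 7.01 and 6.74 CPM in TC + ATA, that is a log2 fold change of 1.11 (standard error 0.15, edgeR adjusted p = 0.0153). Its level in EV, 14.6 ± 1.39 CPM (SD, n = 2), was still above all TC + ATA libraries. The chains that rose most or were most abundant in TC did not pass, with a log2 fold change of −0.14 for Itga3 (standard error 0.09, edgeR adjusted p = 0.705) and of −0.04 for Itgb1 (standard error 0.09, edgeR adjusted p = 0.932).

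In edgeR 1 of 43 members was called higher and none lower in TC + ATA versus TC, against 0.426% and 0.156% of all genes (0.583% in either direction). At an unadjusted p under 0.05, 7 members were higher and 7 lower, which is 32.6% of those tested, against 9.61% of all genes. The median log2 fold change was −0.08 for the integrin chains and 0.00 for the adaptors and actin linkers, against 0.0033 for all genes. The call of Itga11 was lost when TC + ATA replicate 1, 2 or 3 was left out (edgeR adjusted p = 0.0817, 0.0847 and 0.0937). DESeq2 called Itga11 higher as well, and Itgb7, Src and Pxn lower.

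The members with the smallest p-values among the decreases were Src, Itgb7 and Pxn. Itgb7 went from 23.4 CPM in TC to 15.7, 15.8 and 16.7 CPM (log2 fold change −0.54, standard error 0.10, edgeR adjusted p = 0.0698 and DESeq2 adjusted p = 0.0244). Src went from 104 CPM to between 77.4 and 82.8 CPM (log2 fold change −0.36, standard error 0.07, edgeR adjusted p = 0.0935 and DESeq2 adjusted p = 0.0271). Pxn went from 139 to 111 CPM (log2 fold change −0.32, standard error 0.07, edgeR adjusted p = 0.118 and DESeq2 adjusted p = 0.0490). In all 3 the TC library stood above every TC + ATA library, as it did for 16 of the 43 members tested. TC has 1 library, and the share of such genes over all genes is not given here. Without EV replicate 1 or 2 the log2 fold changes were −0.54 and −0.53 for Itgb7, −0.36 and −0.35 for Src and −0.32 and −0.31 for Pxn. All 3 passed edgeR in those fits, where calls over all genes rose as well.

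Among the increases that did not pass, Itga8 showed a log2 fold change of 0.80 (standard error 0.20, edgeR adjusted p = 0.165) and Itga1 of 0.82 (standard error 0.26, edgeR adjusted p = 0.300). Tns1, which stood at 97.4 CPM in TC and at 119 to 129 CPM in TC + ATA, showed a log2 fold change of 0.33 (standard error 0.09, edgeR adjusted p = 0.196). Without EV replicate 1 or 2 the log2 fold changes were 0.79 and 0.81 for Itga8 and 0.33 and 0.34 for Tns1. Both genes were called higher by edgeR in those fits, where calls over all genes rose as well. The TC library enters this comparison and the first in opposite roles, so the values of a gene in both are not independent.

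The third comparison set TC + ATA cells against EV, the groups with replicates on both sides. Most adhesion genes differed between ATA-treated TC cells and EV cells, and the laminin-binding chains were again well above EV. Itga3 was 7.67-fold, Itga1 8.03-fold, Itga7 4.75-fold and Itga6 3.36-fold higher than in EV, and Itga8, Itga11 and Itgb5 were 0.475, 0.479 and 0.592 times the EV level. Pxn had 111 ± 0.407 CPM (SD, n = 3) in TC + ATA and 111 ± 3.98 CPM (SD, n = 2) in EV (log2 fold change 0.00, standard error 0.06, edgeR adjusted p = 0.999).

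In edgeR 27 of the 43 members passed as higher than in EV and 3 as lower, against 18% and 18.6% of all genes (36.6% in either direction). Scaling by library totals alone gave 24 higher and 4 lower, and over all genes it moved the split from 3340 higher and 3449 lower to 2711 and 4384. For 29 members the EV libraries were both below the lowest TC + ATA library and for 6 both above the highest, against 28.7% and 30.1% of all genes. The median log2 fold change was 0.85 for the integrin chains and 0.44 for the adaptors and actin linkers, against −0.0107 for all genes. The log2 fold changes were 2.94 for Itga3 (standard error 0.08, edgeR adjusted p = 8.01e-08), 3.01 for Itga1 (standard error 0.23, edgeR adjusted p = 1.38e-05) and −1.07 for Itga8 (standard error 0.14, edgeR adjusted p = 3.54e-04). Members that passed here but not in TC versus EV were Itga5, Lims2 and Nedd9. Lims2 had the largest log2 fold change of all adaptors, 2.31 (standard error 0.37, edgeR adjusted p = 1.11e-03). The calls of Itga5 and Nedd9, with log2 fold changes of 0.21 for each, were lost on leaving out any single TC + ATA replicate, with adjusted p-values in edgeR between 0.0709 and 0.130, and that of Src (log2 fold change 0.22) without TC + ATA replicate 1 or 2 (edgeR adjusted p = 0.0906 and 0.0948). The call of Itgb4 (log2 fold change 0.86) was lost without either EV replicate and without TC + ATA replicate 2 or 3, with adjusted p-values in edgeR between 0.0583 and 0.120. EV is shared with the first comparison.

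The ligands and partners of these receptors gave a wider view of the same adhesion system in TC versus EV. Their lists were written by name, with earlier results of these data known. Of 31 integrin ligands tested, 14 were higher and 9 lower, against 14.8% and 13.2% of all genes. In either direction 74.2% were called, against 28% of all genes. Laminin chains were among the higher ligands, with log2 fold changes of 2.35 for Lama5, 1.27 for Lamc1 and 1.00 for Lamb1. However, Lama2 and Lama4 fell by 2.63 and 1.41 on the log2 scale. Cd151, the tetraspanin that binds laminin-receptor integrins, had 76.6 and 67.1 CPM in EV and 228 CPM in TC (log2 fold change 1.66, edgeR adjusted p = 3.48e-06). Npnt, the nephronectin ligand of Itga8, rose by a log2 fold change of 1.16 (edgeR adjusted p = 1.08e-05) while that receptor chain fell.

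Other matrix ligands were split between rises and falls. Fn1 (fibronectin) showed a log2 fold change of −0.83, Spp1 (osteopontin) of −0.77, Thbs1 (thrombospondin) of −1.78 and Tnc (tenascin C) of −2.19, with edgeR adjusted p-values of 2.59e-03, 6.25e-04, 3.17e-06 and 2.01e-06. Ccn1 and Mfge8, which also bind integrins, rose by log2 fold changes of 1.36 and 1.00 (edgeR adjusted p = 3.39e-05 and 7.49e-04). In TC + ATA versus TC, Thbs1 was called higher (log2 fold change 1.10, edgeR adjusted p = 2.19e-03) and Edil3 lower (log2 fold change −1.10, edgeR adjusted p = 6.78e-03), and the other 29 ligands did not pass, of which DESeq2 called Fn1 and Postn higher and Lamb1 lower.

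Among the 46 other plaque genes tested, 17 were higher and 6 lower in TC versus EV, against 14.8% and 13.2% of all genes. In either direction 50% were called, against 28% of all genes. None passed in TC + ATA versus TC in edgeR, against 0.583% of all genes. There 12 of the 46 had an unadjusted p under 0.05, against 9.61% of all genes. DESeq2 called Actn2 and Fhl1 higher and Kank3 lower there. Sorbs3 (vinexin), which binds vinculin, rose by a log2 fold change of 1.89 (edgeR adjusted p = 1.16e-06). Kank3, of a family that binds talin, and Fhl1 had the lowest log2 fold changes of those called, −1.43 and −0.95 (edgeR adjusted p = 2.95e-04 and 0.0144). Of 16 membrane partners and regulators of integrins, 8 were higher and 2 lower in TC versus EV, against 14.8% and 13.2% of all genes. Dab2, an endocytic adaptor of beta tails, rose by a log2 fold change of 2.25 (edgeR adjusted p = 4.09e-07) and the tetraspanin Cd82 fell with −1.91 (edgeR adjusted p = 6.80e-05).

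Of the 6 hemidesmosome genes listed beside Itgb4, 4 were higher in TC than in EV (Cd151, Krt14, Plec and Dst), against 14.8% of all genes. Col17a1 lay lower in TC, with a log2 fold change of −1.53 that did not pass. Krt5 was not tested, with no counts in 5 of the libraries. Plec and Dst, which also occur in fibroblasts, rose by log2 fold changes of 0.67 and 0.74 (edgeR adjusted p = 6.06e-04 and 1.01e-03). In TC + ATA versus EV, edgeR called Col17a1 lower (log2 fold change −1.96) and 3 of these genes higher, against 18.6% and 18% of all genes. Of 8 leukocyte and platelet chains 4 were tested (Itgae, Itgal, Itga2b and Itgb2), and 25% of these were called in TC versus EV, against 28% of all genes. Itgb2 had 5.07 and 4.73 CPM in EV, 13.0 CPM in TC and 10.7, 9.38 and 11.0 CPM in TC + ATA, and was the only one called in TC versus EV (log2 fold change 1.41, edgeR adjusted p = 9.57e-05).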

How the data were processed

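Transcript levels were measured by bulk RNA-Seq in NIH3T3 cells (6 libraries). The authors selected poly(A) RNA, prepared libraries with NEBNext Ultra II RNA, a kit that does not mark strand, aligned paired-end reads to GRCm38.p6 (mm10) with HISAT2 (version 2.2.1 in the submitters' processing notes) and counted reads per gene with featureCounts in Galaxy. The deposited values are raw counts per gene without normalization, as whole numbers. The annotation release and the treatment of reads in overlapping genes are not given in the sources used here, so genes that share exonic bases with another gene are uncertain.

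Symbols, positions and exonic lengths came from GENCODE M21 (GRCm38), which held 55141 of the 55401 identifiers. Counts were fitted in R 4.3.3 with edgeR 4.0.16 with TMM factors, filterByExpr and the quasi-likelihood functions glmQLFit and glmQLFTest. The model held all 6 libraries with 3 residual degrees of freedom, and p-values were adjusted over all genes tested (Benjamini-Hochberg). Standard errors were derived from the F statistic. CPM are counts scaled to 1000000 per library after TMM, and RPKM are CPM per kilobase of merged exons. The test was run on simulated data first. Alternatives were DESeq2 1.42.0, other scalings, no filter, only the groups compared, a replicate block, and fits without each single replicate of EV or TC + ATA.

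The members and lists were chosen with earlier results of these data known. All 44 members are named. Values in every library are given for members called in TC versus EV with an absolute log2 fold change of at least 1, for those called in TC + ATA versus TC and for the core of the plaque, and several others were added after their values were seen. The companion list of plaque genes held 1 symbol that is not in the annotation. Promoter windows came from RefSeq. Protein sequences were not used here, so the planned look at integrin tails was not made.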

Additional observations from a re-analysis of the deposited data

How the results depend on the processing

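Directions held: no called log2 fold change of a member changed sign in any of the 11 settings. Of the 29 members called in TC versus EV, 20 were called in every setting, and of the 30 called in TC + ATA versus EV, 25. With each replicate left out in turn, between 22 and 25 members were called higher and between 3 and 7 lower in TC versus EV, the 7 without EV replicate 2. Leaving out an EV replicate leaves EV with 1 library, which is then assumed to vary as TC + ATA does. Calls over all genes in TC versus EV rose in those fits and fell when a TC + ATA replicate was left out.

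In TC + ATA versus TC, the single call of the report was lost in some setting and 12 other members gained one, against 9 lost and 5 gained in TC versus EV. With each replicate left out in turn, between 0 and 4 members were called higher and between 0 and 8 lower, the 4 with either EV replicate absent and the 8 without EV replicate 1. With only the groups compared, 5 were higher and 6 lower. Over all genes the calls then went from 79 higher and 29 lower to 795 and 633. DESeq2 called 3 members lower, and over all genes 236 higher and 84 lower. The fit without a filter on low counts called 2 members lower, and over all genes 242 higher and 108 lower. Calls over all genes also rose with either EV replicate left out, so gains were not confined to the members. Without TC + ATA replicate 1, 2 or 3, calls over all genes fell to 28, 21 and 7 higher and to 12, 7 and 3 lower. Whether members gained calls more often than other genes was not tested. With the replicate block, 0 members were higher, against 32 of all genes. EV and TC + ATA share the numbers 1 and 2 in the labels. Deviations of same-numbered libraries from their group means correlated at −0.0257 and −0.0767 over genes. The 2 EV libraries deviate as mirror images, so these values rest on a single EV contrast. They cannot decide whether equal numbers mark a pairing. With the block, 19 members were higher and 3 lower in TC versus EV, and 22 and 3 in TC + ATA versus EV. Over all genes the block gave 1717 higher and 1467 lower in TC versus EV, and 2450 and 2195 in TC + ATA versus EV. The block cost the call of Itga11 in TC + ATA versus TC (edgeR adjusted p = 0.0566).

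Scaling by library totals moved the log2 fold changes of all genes by a median of −0.11 in TC versus EV, and 2072 genes were then higher and 3159 lower, against 2735 and 2456. For the members it gave 22 higher and 6 lower, with the calls of Itgb4, Tln2 and Pxn lost (edgeR adjusted p = 0.0686, 0.191 and 0.0542). In TC + ATA versus EV it cost the calls of Itga5, Nedd9 and Src (edgeR adjusted p = 0.100, 0.225 and 0.141). Members with few counts, such as Itga2, Itgb6 and Lims2, had standard errors of 0.60, 1.03 and 0.46 in TC versus EV, and counting error was not separated from the spread between libraries.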
